A study of Mus musculus with 16 samples.

Results

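Gene expression at a later and an earlier passage was compared in 4 lines of mouse tumour organoids (MTOs), intestinal tumour cells that grow as spheres in a gel, all kept in full medium. The comparison used the 8 of the series' 16 libraries whose labels give full medium and day 4, 1 later-passage and 1 earlier-passage library from each line. MTO54 was taken at passage 15 (later) and 14 (earlier), MTO220 and MTO100 at 11 and 10, and MTO101 at 9 and 8, so each pair is 1 passage apart. All later-passage libraries were in pool 2 and all earlier-passage libraries in pool 1, so passage, pool, and whatever differed between the 2 rounds of culture cannot be told apart.

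MTO54 and MTO220 had the genotype AKP, for which the labels give Tgfbr2 as wild type, while the genotype of the lines MTO100 and MTO101 was APT. By the field's usual reading, which the labels do not spell out, both genotypes carry lesions in Apc and Trp53, and APT carries one in Tgfbr2. All 8 cultures received 1 µM galunisertib, which inhibits the kinase of a TGF-beta receptor, together with noggin at 100 ng/ml, which blocks BMP ligands, and 50 ng/ml of EGF. Each line is 1 organoid line, and the p-values below measure the spread between 4 pairs of libraries, since nothing in the labels ties a library to more than 1 culture. The other 8 libraries, from the same lines, passages and pools but collected at day 7 in changed medium (AKP without galunisertib and with TGF-beta1, APT without EGF), served for comparison.

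Organoids are passaged by breaking them to single cells, which then regrow into hollow or solid spheres inside a gel. As spheres grow and cells become dense, oxygen and nutrients reach the inner cells less well, and cells that lack oxygen stabilise hypoxia-inducible factors (HIFs). These transcription factors bind core letters such as ACGTG or their reverse complement. They switch on glucose uptake, glycolysis, lactate export, collagen modification and blood vessel growth factors. Growth factor pathways in the intestinal epithelium (WNT, EGFR/ERK, TGF-beta and Notch) each switch on their own inhibitors, so the levels of such feedback genes are widely used to read pathway output.

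The RNA yield was higher at the later passage in every line in full medium. It was 2344 ng/µl at the later passage against 423 ng/µl at the earlier in MTO54, and 2011 against 969 ng/µl in MTO220. MTO100 gave 1586 ng/µl at the later and 168 ng/µl at the earlier passage, and MTO101 1065 and 307 ng/µl. The ratio of later to earlier yield was thus 5.54, 2.08, 9.44 and 3.47 in the order MTO54, MTO220, MTO100 and MTO101, which is the order of all values by line below. Library depth was alike, between 21005836 and 22251986 reads on genes at the later passage and between 19384249 and 19755802 at the earlier. All 11 epithelial identity genes passed the filter in full medium, Epcam between 9578 and 14950 normalised reads and Cdh1 between 4041 and 11730, with a summed level of the list between 100800 and 185800 at the later and between 107700 and 190000 at the earlier passage. The summed levels of 8 fibroblast markers (15.1 to 158.2 at the later, 13.79 to 67.98 at the earlier passage), 8 immune markers (35.26 to 335.7 and 38.22 to 326.5) and 5 endothelial markers (193.6 to 1410 and 186.2 to 713.5) were small beside it, and the fibroblast gene Lum was at 0 in all 8 libraries. Of the 3 marker lists 1 of 8, 2 of 8 and 3 of 5 genes passed the filter on low values (10 or more normalised reads in at least 4 libraries), and none was called. Their part in the results was not tested. In RNA from whole cultures, fewer cells of a type and less RNA per cell cannot be told apart.

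Of 13725 genes tested, 728 rose at the later passage (5.3%) and 761 fell (5.54%), at an adjusted p under 0.05 (limma-trend on log2 of the normalised reads + 1, paired by line, Benjamini-Hochberg). The change was at least 2-fold for 169 of those that rose and 52 of those that fell. Almost every called gene moved the same way in all 4 lines, 726 of the 728 and 753 of the 761. Irrespective of a test, 2526 genes were higher in all 4 lines (18.4% of those tested) and 2575 were lower in all 4 (18.8%). At least 1.5-fold in every line, 180 genes were higher (1.31%) and 68 lower (0.495%), and at least 2-fold in every line 22 and 10. How many genes were called depended on which line was left out: 337 genes were called without MTO101, 409 without MTO220, 887 without MTO100 and 1111 without MTO54, and 229 of the 1489 were called with each line left out in turn (149 higher, 80 lower). Of the 100 called genes named in the text, 33 were called in all of these fits. Without the pairing by line none was called. When libraries were scaled to their totals rather than by the authors' size factors, the median of all genes was 0.14 higher on the log2 scale and the split was 1198 higher to 334 lower, so directions here are relative to the median gene.

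The lines fell into pairs that cut across genotype. Across the 13725 genes, the passage changes of MTO54 and MTO100 correlated with a Pearson r of 0.61 and those of MTO220 and MTO101 with 0.64, while the other 4 pairs of lines lay between 0.21 and 0.29. These are descriptions over genes, which are not independent, and the lines share no library; in all lines the later-passage library was in the same pool. With trends on transcript length and GC content removed (below), r was 0.55 for MTO54 and MTO100 and 0.45 for MTO220 and MTO101. The other pairs then lay between 0.19 and 0.25. MTO54 and MTO100 were the lines with the larger rise in RNA yield, and whether yield is tied to the pairing was not tested. The next groups of genes differ in which of these pairs of lines carried the change.

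Genes of glycolysis and hypoxia were higher at the later passage, very strongly in MTO54 and MTO100 and little in MTO220 and MTO101. The list's median log2 change was 0.78, against 0.00 for all genes, and by line it was 1.56, 0.17, 1.23 and 0.04. Of its 34 tested members 9 rose, none fell, and 17 were higher in all 4 lines. In MTO54 and MTO100 together, 20 of the 34 were more than 2-fold higher (2.13% of all genes were), whereas in MTO220 and MTO101 together none was (0.86% of all genes). The changes in both MTO54 and MTO100 lay above those in both other lines for 32 of the 34 (94.1%, against 31.0% of all genes).

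Slc16a3, the transporter that exports lactate from glycolytic cells, had a very wide change in some lines. It had 8152, 1813, 6991 and 351 normalised reads at the later passage, against 206, 1549.5, 160.1 and 101 at the earlier passage. Both MTO54 and MTO100 were low at the earlier and high at the later passage, whereas MTO220 had much the same level at both, which lay between the extremes of the other lines. Its mean log2 change was 3.19 ± 1.16 (SE), with 5.30, 0.23, 5.44 and 1.78 by line, and it was not called (adjusted p = 0.178). Bnip3, which marks mitochondria for removal, had 3952, 1279, 4266 and 606 normalised reads at the later passage, against 244, 1008, 193 and 444 at the earlier passage. It showed the same division of the lines and was not called either (2.32 ± 1.00, adjusted p = 0.229). Egln3, an oxygen-sensing hydroxylase that is itself a HIF target, had 7991, 3362, 3499.7 and 334 normalised reads at the later passage, against 795, 2634, 269 and 248 at the earlier passage, a log2 change of 1.95 ± 0.79, adjusted p = 0.202. The peptide hormone gene Adm, with log2 changes of 5.97, 0.52, 3.79 and 0.38, the HIF target Ankrd37, with 3.57, 0.20, 3.60 and 0.01, and Ndrg1, with 3.69, 0.29, 2.49 and 0.36, were further uncalled genes with large values in MTO54 and MTO100. Hif3a, a HIF family member that is itself induced by hypoxia, had 547, 82.6, 74.0 and 42.1 normalised reads at the later passage, against 10.9, 41.4, 4.24 and 18.4 at the earlier passage. All 4 lines were higher in Hif3a at the later passage, and the change of 2.87 ± 0.76 missed the threshold (adjusted p = 0.0568).

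**Figure D1:**
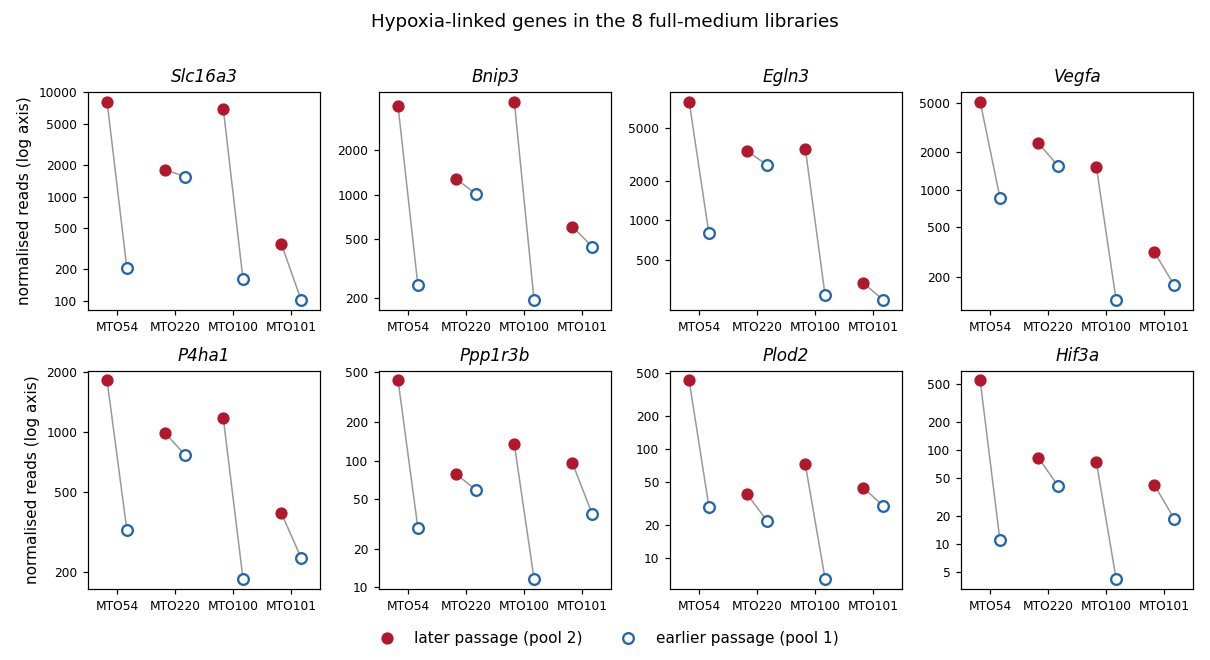
Normalised reads (log axis) of 8 hypoxia-linked genes in the 8 full-medium libraries, with the later passage (filled) left of the earlier passage (open) in each line and a grey line joining the pair. MTO54 and MTO100 show steep pairs in every panel, such as 8152 against 206 for Slc16a3 in MTO54, while MTO220 and MTO101 show flatter ones in the same direction.

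Vegfa, the blood vessel growth factor, had 5129, 2389, 1532 and 315 normalised reads at the later passage, against 868, 1559, 130.4 and 172 at the earlier passage. It was higher in every line but uncalled (1.90 ± 0.54, adjusted p = 0.0852), with 2.56, 0.62, 3.54 and 0.87 by line. The hypoxia-linked genes that passed the test included some with a smaller and more even change. Kdm3a, a histone demethylase that HIFs induce, had 2137, 1854, 2319 and 1821 normalised reads at the later passage, against 1017, 1341, 1111 and 1127 at the earlier passage. The earlier-passage values of Kdm3a all lay below the later-passage ones, and it rose by 0.82 ± 0.14, adjusted p = 0.0145. Pfkfb3, which makes the activator of phosphofructokinase, rose by 1.18 ± 0.23, adjusted p = 0.0179, hexokinase 2 (Hk2) by 0.70 ± 0.13, adjusted p = 0.017, and the glucose transporter Slc2a1 by 0.99 ± 0.22, adjusted p = 0.0264. Without MTO100 or MTO101 Slc2a1 was no longer called, while Kdm3a, Pfkfb3 and Hk2 stayed called whichever line was left out. The remaining called members, named after their values were seen, were Ero1a (1.33 ± 0.30), P4ha2 (1.21 ± 0.33), Egln1 (0.86 ± 0.21) and Mxi1 (0.56 ± 0.16), and each of these calls was lost without MTO100. Ero1a also lost its call without MTO101, Egln1 without MTO54, P4ha2 without MTO54 or MTO101, and Mxi1 without MTO54 or MTO220. 2 enzymes of glycolysis differed in sign between the lines: Pgk1, phosphoglycerate kinase, had changes of 1.66, -0.42, 1.55 and -0.34 by line and lactate dehydrogenase Ldha 0.85, -0.55, 1.23 and -0.51, and neither was called (adjusted p = 0.284 and 0.58).

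Among called genes with a mean log2 level of at least 5 and an established symbol, Ppp1r3b and Plod2 had the highest log2 changes, and both showed the MTO54 and MTO100 pattern. Ppp1r3b, which targets protein phosphatase to glycogen, had 428, 78.2, 135 and 95.5 normalised reads at the later passage, against 29.5, 58.6, 11.7 and 38.0 at the earlier passage. Its change was 2.24 ± 0.52, adjusted p = 0.0318, with 3.81, 0.41, 3.42 and 1.31 by line, and it was called by no more than 1 of the 4 fits that each left out a line, the one without MTO220. Plod2, which hydroxylates lysine in collagen, had 429, 38.2, 72.1 and 43.9 normalised reads at the later passage, against 29.5, 21.8, 6.36 and 30.0 at the earlier passage. It rose by 2.11 ± 0.52, adjusted p = 0.034, but not without MTO54 or MTO100. P4ha1, the prolyl hydroxylase that stabilises collagen, had 1817, 992, 1179 and 394 normalised reads at the later passage, against 325, 770.2, 184 and 235 at the earlier passage. Its call (1.56 ± 0.40, adjusted p = 0.0499) was at the edge of the threshold and held with no line left out other than MTO220. Npas2, a partner of the clock protein BMAL1, was of the same kind (3.34, 0.48, 2.00 and 0.88 by line; mean 1.68 ± 0.39, adjusted p = 0.0306), and its call was lost without MTO100 or MTO101.

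Promoters of the hypoxia list held ACGTG, letters that HIFs bind, more often than others, while those of called genes that rose held them about as often. No other form of the HIF core was searched. The list was put together as genes of glycolysis and hypoxia, so its share describes the list and not the changes seen here. Windows from 250 bases before to 50 after the start of transcription (RefSeq, GRCm38.p6) were found for 10355 of the 13725 tested genes and 33 of the 34 list members. ACGTG on either strand was present in 18 of the 33 windows (54.5%), against 25.6% of the windows of all tested genes, 26.4% of those of called genes that rose and 25.6% of those that fell. The other motifs read were TGATGNAA (ATF4), CCAAT (NF-Y), TGANTCA (AP-1) and ATCAAAG (TCF), present in 2.28%, 39.8%, 5.0% and 2.65% of all tested genes' windows and in 0%, 39.4%, 3.03% and 3.03% of the list's. CCAAT was in 28.8% of the windows of genes that rose and 41.6% of those that fell. Of the 3 highest called genes with a window in the table, Abca1 held ACGTG at 1 site (CACGTG, which reads on both strands), Npas2 at 1 and Muc4 at none, and the 3 lowest with a window (Bc1, Gsta1 and Gsta2) held none. A match is a description of the letters, not of binding. Of 6 hypoxia-linked genes chosen after their values were seen, Slc16a3 and Ankrd37 held ACGTG at 2 sites, Bnip3, Egln3 and P4ha1 at 1 and Vegfa at none. To show windows with and without these letters, 4 of the 6 follow, with ACGTG or its reverse complement in capitals. They lie at chr11:120948817-120949116 (plus strand), chr7:138909457-138909756 (minus strand), chr8:45999801-46000100 (minus strand) and chr17:46032328-46032627 (minus strand), and each is written 5′ to 3′ along its gene's strand.
Slc16a3: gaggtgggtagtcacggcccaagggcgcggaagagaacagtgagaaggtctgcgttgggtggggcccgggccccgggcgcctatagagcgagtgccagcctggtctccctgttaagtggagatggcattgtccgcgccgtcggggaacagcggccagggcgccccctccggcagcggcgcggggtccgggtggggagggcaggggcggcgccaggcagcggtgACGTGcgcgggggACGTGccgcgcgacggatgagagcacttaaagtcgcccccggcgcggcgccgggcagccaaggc
Bnip3: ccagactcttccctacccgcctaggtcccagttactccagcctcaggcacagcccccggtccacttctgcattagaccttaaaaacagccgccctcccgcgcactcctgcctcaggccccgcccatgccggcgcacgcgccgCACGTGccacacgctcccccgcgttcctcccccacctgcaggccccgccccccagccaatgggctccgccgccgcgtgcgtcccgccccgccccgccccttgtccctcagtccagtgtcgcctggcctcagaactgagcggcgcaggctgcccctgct
Ankrd37: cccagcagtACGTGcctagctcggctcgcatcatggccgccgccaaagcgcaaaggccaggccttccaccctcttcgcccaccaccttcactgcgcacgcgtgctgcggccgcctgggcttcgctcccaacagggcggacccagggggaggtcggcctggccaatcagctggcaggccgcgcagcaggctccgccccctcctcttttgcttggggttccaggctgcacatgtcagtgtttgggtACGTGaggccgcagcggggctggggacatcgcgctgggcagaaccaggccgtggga
Vegfa: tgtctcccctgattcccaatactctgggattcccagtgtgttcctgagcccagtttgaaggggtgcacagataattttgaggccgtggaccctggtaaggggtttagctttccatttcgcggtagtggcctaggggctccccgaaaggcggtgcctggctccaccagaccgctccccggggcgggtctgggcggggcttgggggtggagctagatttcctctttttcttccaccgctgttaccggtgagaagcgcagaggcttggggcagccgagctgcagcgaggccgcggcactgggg
The capitals in Bnip3 are CACGTG, a single palindromic site, and Vegfa has none.

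A different set of genes rose by more even amounts across the 4 lines. Neat1, the nuclear RNA around which paraspeckles form (chromosome 19), had 2340.2, 1404, 1137 and 633 normalised reads at the later passage, against 394, 308, 402 and 212 at the earlier passage. Each later-passage value lay above every earlier-passage value, and it rose by 1.96 ± 0.19, adjusted p = 0.00274, with 2.57, 2.18, 1.5 and 1.57 by line. Malat1, the nuclear RNA encoded next to Neat1, was higher in MTO54, MTO100 and MTO101 and level in MTO220 (2.09, -0.04, 1.04 and 0.50), and was not called (0.90 ± 0.28, adjusted p = 0.0652). Firre, a nuclear RNA of the X chromosome, had 807, 678, 774 and 719.8 normalised reads at the later passage, against 239, 246, 316 and 279 at the earlier passage. The change of Firre was among the most even of those named (1.75, 1.46, 1.29 and 1.37 by line; mean 1.47 ± 0.14, adjusted p = 0.00274). Kmt2d, a histone H3 lysine methyltransferase of enhancers, had 1439, 1072, 886 and 1215 normalised reads at the later passage, against 550.4, 319.6, 355 and 380.2 at the earlier passage, and rose by 1.53 ± 0.14, adjusted p = 0.00274. Abca1, the cholesterol exporter, had 382, 19.5, 62.6 and 201.2 normalised reads at the later passage, against 111, 6.90, 19.1 and 35.7 at the earlier passage. In each line Abca1 was higher at the later passage, and it rose by 1.82 ± 0.25, adjusted p = 0.0103.

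Surface and matrix genes were also among the highest. Lrp1, an endocytic receptor, rose by 1.63 ± 0.22, adjusted p = 0.00996, Col4a5, a chain of basement membrane collagen, by 1.53 ± 0.27, adjusted p = 0.0151, and Itga7, a laminin-binding integrin, by 1.75 ± 0.36, adjusted p = 0.0212. The change of Itga7 was largest in MTO54 and MTO100 (2.89, 0.64, 2.4 and 1.06 by line). Muc4, a membrane mucin, had 82.4, 374, 43.6 and 30.1 normalised reads at the later passage, against 14.2, 143, 22.3 and 3.46 at the earlier passage. Its change (1.90 ± 0.33, adjusted p = 0.0145) was largest in MTO101 and MTO54. Slc41a2, a magnesium transporter, rose by 1.57 ± 0.40, adjusted p = 0.0343, with the largest change in MTO54 (3.36, 0.68, 0.72 and 1.52 by line), and its call was lost without MTO54, MTO220 or MTO101. Neat1, Firre, Kmt2d, Abca1, Lrp1, Col4a5, Itga7 and Muc4 stayed called whichever line was left out.

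**Figure D2:**
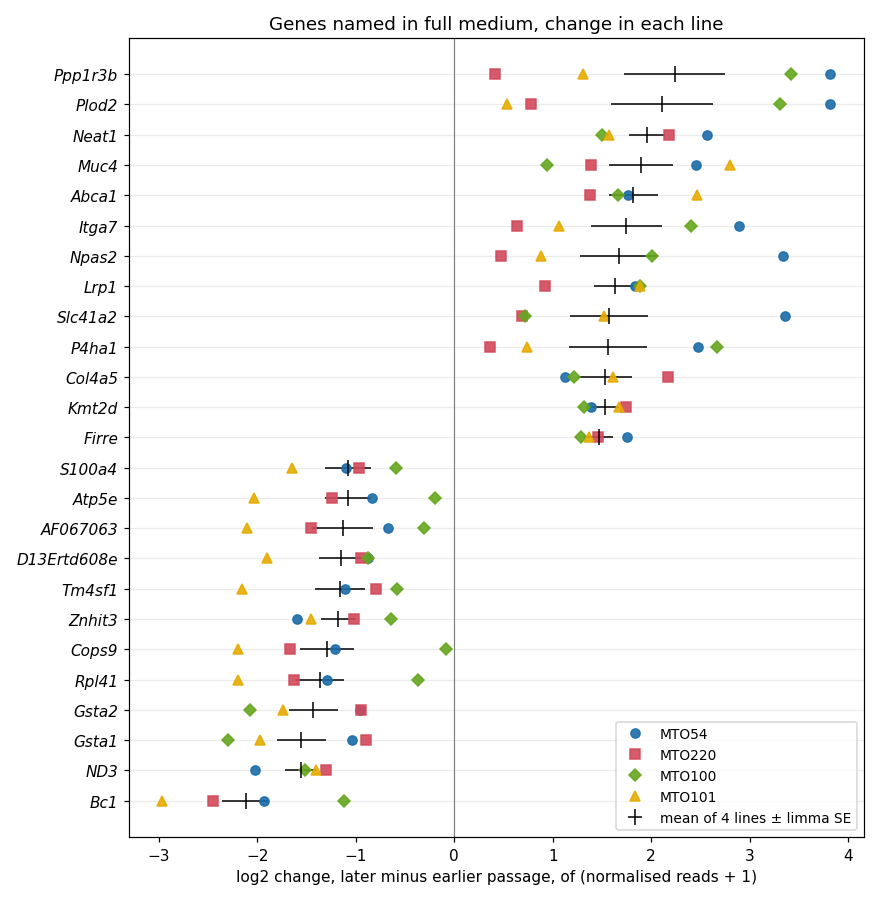
Log2 change (later minus earlier passage) of the 12 highest and 12 lowest named genes and Firre in each of the 4 lines (coloured symbols), with the mean and its limma standard error in black. Ppp1r3b and Plod2 are spread widely, with MTO54 and MTO100 above 3 and MTO220 and MTO101 below 1.5, while the symbols of Kmt2d and Firre lie close together.

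Some feedback genes of growth factor signalling rose. Of 22 EGFR/ERK genes 6 rose and none fell (median 0.45), and 15 were higher in all 4 lines. Spry4, an inhibitor of the pathway that ERK switches on, had 3234, 671, 486 and 611 normalised reads at the later passage, against 1246, 383, 197 and 296 at the earlier passage. It was higher in every line at the later passage and rose by 1.13 ± 0.15, adjusted p = 0.00996. Tgfa, an EGFR ligand, rose by 0.91 ± 0.15, adjusted p = 0.0123, the ERK phosphatase Dusp4 by 0.61 ± 0.13, adjusted p = 0.0247 and the inhibitor Spry1 by 0.59 ± 0.15, adjusted p = 0.0326. Spry4 and Tgfa were called whichever line was left out, Dusp4 only without MTO101, and Spry1 in none of the 4 fits. Among 19 immediate early genes 3 rose and 12 were higher in all lines (median 0.50, by line 0.92, 0.23, 0.47 and 0.15). The antiproliferative gene Btg2 rose by 0.84 ± 0.18, adjusted p = 0.0247, and the AP-1 subunits Fos (0.94 ± 0.24, adjusted p = 0.0367) and Jun (0.55 ± 0.15, adjusted p = 0.0385) rose too, although both AP-1 calls were lost without any of the lines. Egr1 had a change of 0.55 ± 0.16 and just missed the threshold (adjusted p = 0.0536).

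Some genes that TGF-beta and BMP signalling switch on rose, in libraries that all contained galunisertib and noggin. Of 21 TGF-beta/SMAD genes 9 rose and none fell, with a median of 0.49 (0.53, 0.22, 0.79 and 0.50 by line). Smad7, the inhibitory SMAD, had 395, 145, 811 and 1251 normalised reads at the later passage, against 178, 73.6, 289 and 492 at the earlier passage. Its levels were higher in every line at the later passage, APT lines included, and it rose by 1.24 ± 0.16, adjusted p = 0.00996. Of 12 BMP genes 3 rose and 5 were higher in all 4 lines, with medians of 0.27, 0.45, 1.01 and -0.07 by line, and with the trends on transcript length and GC content removed (below) 1 was called. The 3 were Smad7, the second inhibitory SMAD Smad6 (1.14 ± 0.27, adjusted p = 0.0287) and Msx1 (1.22 ± 0.32, adjusted p = 0.0368). Smad6 and Smad7 are in both lists, and the calls of Smad6 and Msx1 were lost without MTO220 or MTO100.

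WNT target genes were mostly higher in all lines, and stem cell genes less uniformly so. Of 23 WNT target genes 8 rose, 20 were higher in all 4 lines and none fell (median 0.49, by line 0.42, 0.40, 0.51 and 0.63), and of 20 intestinal stem cell genes 8 rose and none fell (median 0.45), with 10 higher and 1 lower in all 4 lines. The lists share 5 of the called genes, namely Axin2, Lgr5, Rnf43, Tnfrsf19 and Znrf3. Lef1, a WNT-driven transcription factor, had 961, 209.6, 467 and 798 normalised reads at the later passage, against 553, 88.5, 191 and 468 at the earlier passage, and rose by 1.02 ± 0.16, adjusted p = 0.0112. Rnf43, which removes WNT receptors from the surface, rose by 0.75 ± 0.14, adjusted p = 0.017, its relative Znrf3 by 0.70 ± 0.15, adjusted p = 0.0245 and the receptor Tnfrsf19 by 0.68 ± 0.13, adjusted p = 0.0173. Znrf3 was called only in the fit without MTO54, while Rnf43 and Tnfrsf19 stayed called whichever line was left out. Lgr5, the marker of crypt stem cells, had 299.7, 1399, 384 and 396 normalised reads at the later passage, against 143, 1002, 274 and 137 at the earlier passage. MTO220 held the highest levels at both passages, and the rise of 0.89 ± 0.19, adjusted p = 0.0245 was lost without MTO101. Not all WNT targets did this: Myc had a change of 0.15 ± 0.12 (adjusted p = 0.462).

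Notch genes, FOXO targets and BCL2 family members included further rises. Of 16 Notch genes 5 rose, among them Notch2 (1.00 ± 0.21, adjusted p = 0.0215), Notch3 (1.33 ± 0.32, adjusted p = 0.0309) and the ligands Jag1 (0.68 ± 0.15, adjusted p = 0.0255) and Jag2 (0.54 ± 0.12, adjusted p = 0.026); none of these 4 held with each line left out in turn. Of 18 genes of starvation and FOXO activity 5 rose (median 0.49). They included Irs2, the insulin receptor adaptor, with 326, 309, 181 and 175 normalised reads at the later passage, against 110.3, 170.1, 85.9 and 80.6 at the earlier passage (1.15 ± 0.18, adjusted p = 0.0115). The insulin receptor Insr rose by 0.82 ± 0.15, adjusted p = 0.0153, the EGFR family member Erbb3 by 0.76 ± 0.16, adjusted p = 0.0231 and Ccng2, a cyclin of resting cells, by 1.03 ± 0.26, adjusted p = 0.0353. The calls of Erbb3 and Ccng2 were lost without MTO101, that of Erbb3 also without MTO220 and that of Ccng2 also without MTO100. Of 17 BCL2 family genes 4 rose and 1 fell. Those that rose were the pro-death BH3-only genes Bmf (1.22 ± 0.22, adjusted p = 0.0151), Bcl2l11 (0.75 ± 0.16, adjusted p = 0.0237) and Bbc3 (0.98 ± 0.23, adjusted p = 0.0279) and the survival gene Bcl2l2 (0.61 ± 0.14, adjusted p = 0.0281), and the one that fell was the pro-death gene Bad (-0.54 ± 0.15, adjusted p = 0.0425). Of these 5, Bmf alone was called whichever line was left out; Bcl2l11 was lost without MTO100, Bbc3 without MTO220 or MTO100, and Bcl2l2 and Bad in each of the 4 fits. Ddit4, an inhibitor of mTORC1 that HIFs and ATF4 both induce, had 6062, 3828, 4176 and 1122 normalised reads at the later passage, against 1377, 2288, 1462 and 615 at the earlier passage, and rose by 1.31 ± 0.21, adjusted p = 0.0112. Ddit4 stayed called whichever line was left out. Of the 24 genes of its list, ATF4 stress, 3 rose, the median by line being 0.77, -0.18, 0.69 and -0.45. The clock gene Per3 rose by 1.13 ± 0.19, adjusted p = 0.0145, and 2 of 16 clock genes rose. Over all genes tested 5.3% rose and 5.54% fell.

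Genes of translation and respiration were among those that fell. Rpl41, which encodes the shortest ribosomal protein, had 23705, 21906, 29444 and 19271 normalised reads at the later passage, against 57927, 67807, 37895 and 88191 at the earlier passage. The difference was wide in MTO101 and narrow in MTO100, with a mean of -1.37 ± 0.25, adjusted p = 0.0166, and near-identical copies of Rpl41 make its counts uncertain. Of 30 cytosolic ribosomal protein genes 10 fell and none rose, with a median of -0.60 and medians of -0.32, -0.82, -0.15 and -1.20 by line. Rps7 (-0.72 ± 0.17, adjusted p = 0.0313), Rps18 (-0.78 ± 0.19, adjusted p = 0.0317) and Rpl32 (-0.80 ± 0.20, adjusted p = 0.0317) were each called with MTO54 or MTO100 left out and not without MTO220 or MTO101. Of 24 nuclear respiratory chain genes 6 fell (median -0.36), among them the electron carrier cytochrome c (Cycs, -0.76 ± 0.13, adjusted p = 0.0145) and the cytochrome oxidase subunits Cox6c (-0.61 ± 0.14, adjusted p = 0.0275) and Cox7a2 (-0.69 ± 0.16, adjusted p = 0.0284). Atp5e, a small subunit of ATP synthase, fell by 1.08 on the log2 scale (adjusted p = 0.0247). Cops9, the smallest COP9 signalosome subunit, fell by 1.29 (adjusted p = 0.0256), with -1.22, -1.67, -0.09 and -2.20 by line. Cops9 was called only in the fit without MTO100. The call of Rpl41 was lost without MTO220, and those of Atp5e, Cox6c and Cox7a2 without MTO220 or MTO101.

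Of 13 mitochondrially encoded genes 4 fell, the rest did not pass, and the list's median was 0.08. ND3, a complex I subunit, had 4185, 5504, 5069.7 and 7506 normalised reads at the later passage, against 17055, 13606, 14491 and 19836 at the earlier passage. All later-passage values lay below all earlier-passage values, and it changed by -1.56 ± 0.16, adjusted p = 0.00274. The ATP synthase subunits ATP6 (-0.91 ± 0.18) and ATP8 (-0.97 ± 0.19), which overlap on the same transcript and so cannot be counted apart, fell too. COX3 also fell (-0.66 ± 0.17), but its call was lost with any line left out. By contrast COX1, on the same genome, was 0.57 ± 0.20 (not called, adjusted p = 0.0852). As a whole, mitochondrially encoded genes took 1.56%, 1.66%, 1.74% and 1.82% of reads at the later passage, against 1.68%, 1.39%, 1.92% and 2.09% at the earlier.

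Ribosome assembly and DNA replication genes fell as well. Of 24 ribosome biogenesis genes 9 fell and none rose (median -0.42, by line -0.59, -0.17, -0.54 and -0.33), led by nucleolin (Ncl, -0.81 ± 0.21, adjusted p = 0.0376) and the snoRNP proteins Nhp2 (-0.80 ± 0.15, adjusted p = 0.0176), Nop58 (-0.73 ± 0.17, adjusted p = 0.0279) and Dkc1 (-0.66 ± 0.15, adjusted p = 0.0261). Dkc1 had 1981, 2622, 1566 and 2194 normalised reads at the later passage, against 4232, 3406, 2632 and 2914 at the earlier passage, lower at the later passage in each line. The calls of Dkc1 and Nop58 were lost without MTO54 or MTO100. Ncl was called only in the fit without MTO101, and Nhp2 lost its call without MTO220. Of 26 S phase genes 6 fell, 15 were lower in all 4 lines and none rose (median -0.27). Thymidylate synthase Tyms had 1837, 1753, 1417 and 1465 normalised reads at the later passage, against 2795, 2266, 2222 and 2255 at the earlier passage, and fell in each line (-0.56 ± 0.12, adjusted p = 0.0252). The sliding clamp Pcna (-0.57 ± 0.14, adjusted p = 0.0313), uracil glycosylase Ung (-0.57 ± 0.14, adjusted p = 0.0309) and the chromatin assembly subunit Chaf1b (-0.49 ± 0.12, adjusted p = 0.0317) fell too, but with any line left out these 3 calls were lost, and that of Tyms was lost without MTO220, MTO100 or MTO101. With libraries scaled to their totals no S phase gene and 1 ribosome biogenesis gene was called, and both medians stayed below 0 (-0.13 and -0.29). Mitosis genes had a median of -0.20 and 1 of 26 fell (Birc5, -0.61 ± 0.14, adjusted p = 0.0294), against 5.54% of all genes tested. The proliferation marker Mki67, a long transcript, had a change of 0.57 ± 0.17 (adjusted p = 0.0524). Of 17 replication-dependent histone genes 4 fell (median -0.47), and H2ac8 (-0.87 ± 0.17) and H4c9 (-0.83 ± 0.18) belong to families of near-identical copies. The calls of Birc5 and H4c9 were lost without MTO220 or MTO101. The RNA was selected for poly(A), and the part of that step in the reads of histone genes, and of Bc1 below, was not tested.

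Glutathione and NRF2 genes fell in 7 of 23 members, with no rise (median -0.32). Gsta1, a glutathione transferase, had 52.6, 827, 71.2 and 7.74 normalised reads at the later passage, against 109, 1537, 354 and 33.4 at the earlier passage, a change of -1.55 ± 0.25, adjusted p = 0.0118. Gsta2, a close copy whose reads may be shared with it, changed by -1.43 ± 0.25, adjusted p = 0.0145, and both were lower in every line. Gsta4 (-0.69 ± 0.13, adjusted p = 0.017), thioredoxin (Txn1, -0.77 ± 0.16, adjusted p = 0.0237) and the quinone reductase Nqo1 (-0.81 ± 0.21, adjusted p = 0.0367) fell in addition. The lowest change of all named genes was that of Bc1, a short cytoplasmic RNA made by RNA polymerase III, with 816, 417, 145 and 353 normalised reads at the later passage, against 3124, 2289, 317 and 2769 at the earlier passage and a change of -2.12 ± 0.24, adjusted p = 0.00676. Znhit3 (-1.18 ± 0.18, adjusted p = 0.0112), the tetraspanin relative Tm4sf1 (-1.16 ± 0.26, adjusted p = 0.026), the calcium-binding protein S100a4 (-1.08 ± 0.23, adjusted p = 0.0245), D13Ertd608e (-1.15 ± 0.22, adjusted p = 0.0179) and AF067063 (-1.13 ± 0.31, adjusted p = 0.0409) completed the 12 lowest. Of 16 heat shock genes 2 fell (5.54% of all genes tested did), the chaperones Hsp90aa1 (-0.62 ± 0.16, adjusted p = 0.034) and Hspe1 (-0.71 ± 0.15, adjusted p = 0.024). The call of Hsp90aa1 was lost with any line left out and that of Hspe1 without MTO101. Of the other genes named in this paragraph, only Gsta1, Gsta2, Bc1 and Znhit3 were called whichever line was left out.

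**Figure D3:**
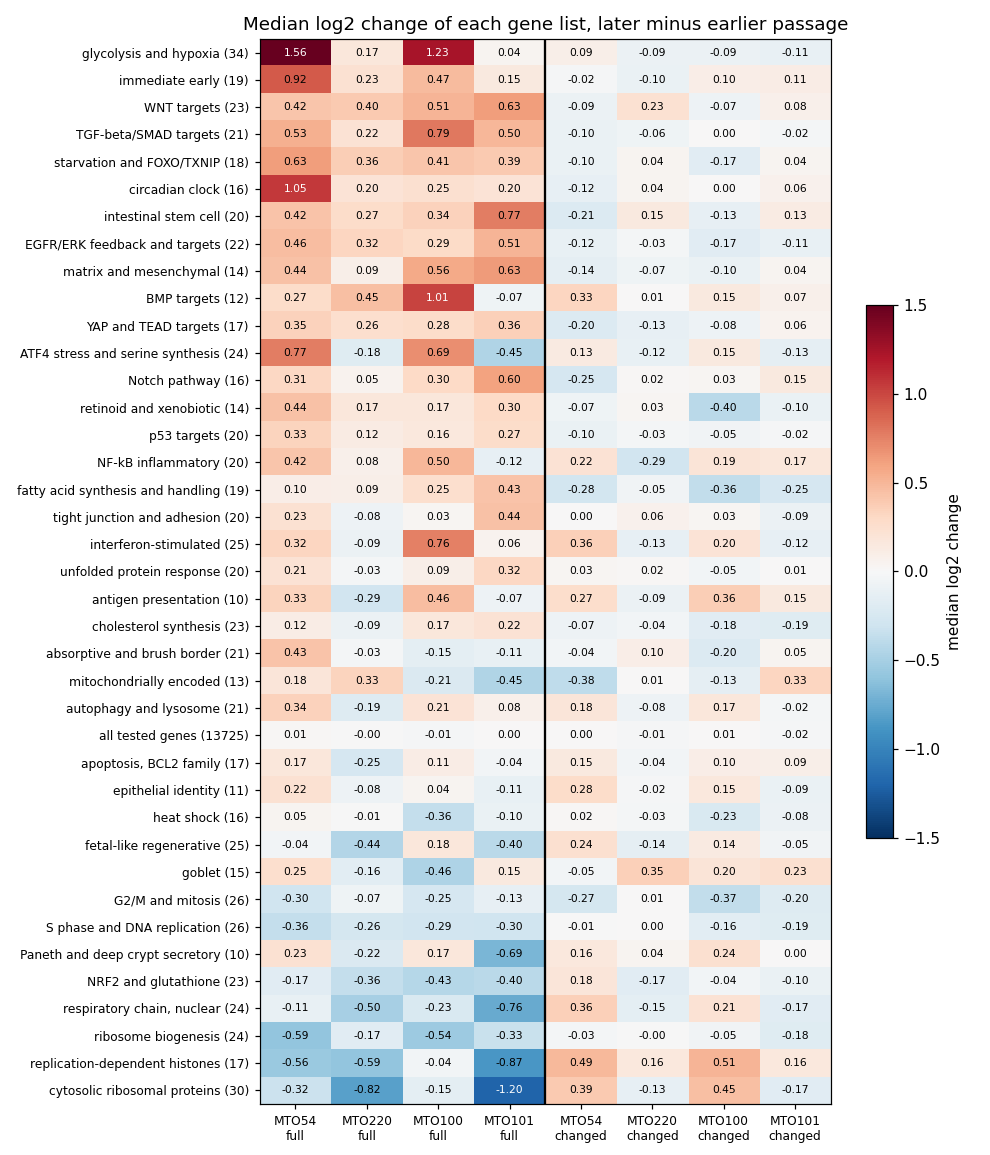
Median log2 change (later minus earlier passage) of each gene list with at least 10 tested members (number in brackets) in each line, full medium on the left and changed media on the right, red above and blue below 0. In full medium glycolysis and hypoxia reach 1.56 in MTO54 and 1.23 in MTO100, and ribosomal proteins -1.20 in MTO101, while in changed media the medians lie between -0.40 and 0.51.

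The direction of change followed transcript length. Genes that rose had a median transcript length of 5695 bases (the longest protein-coding transcript of the gene, or the longest of any kind, in GENCODE M21) and genes that fell one of 1420.5 bases, against 3080 bases over all tested genes with a length (12593 of 13725, 91.75%). The median log2 change was -0.63 for transcripts under 500 bases and 0.38 for those of 8000 or more. Across genes, the Spearman correlation of the change with length was 0.60 in MTO220 and 0.69 in MTO101 and 0.09 and 0.08 in MTO54 and MTO100, so it was large in the lines in which the hypoxia genes moved little. Neat1, Kmt2d, Lrp1, Muc4 and Abca1 have transcripts of 20771, 19823, 14888, 11277 and 10262 bases, and Rpl41, Cops9, Atp5e and ND3 of 582, 653, 421 and 348. By GC content the lines divided too, with Spearman correlations of 0.41, -0.22, 0.31 and -0.07 by line. Ribosomal proteins, with a median length of 1014.5 bases, had MTO54 and MTO100 both above the other lines in 28 of 30 members (93.3%), about the share of the hypoxia list. The hypoxia list had a median length of 2886.5 bases and the S phase list of 3097.0, near that of all genes. The part of transcript length in these results was not tested beyond the fit described next.

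**Figure D4:**
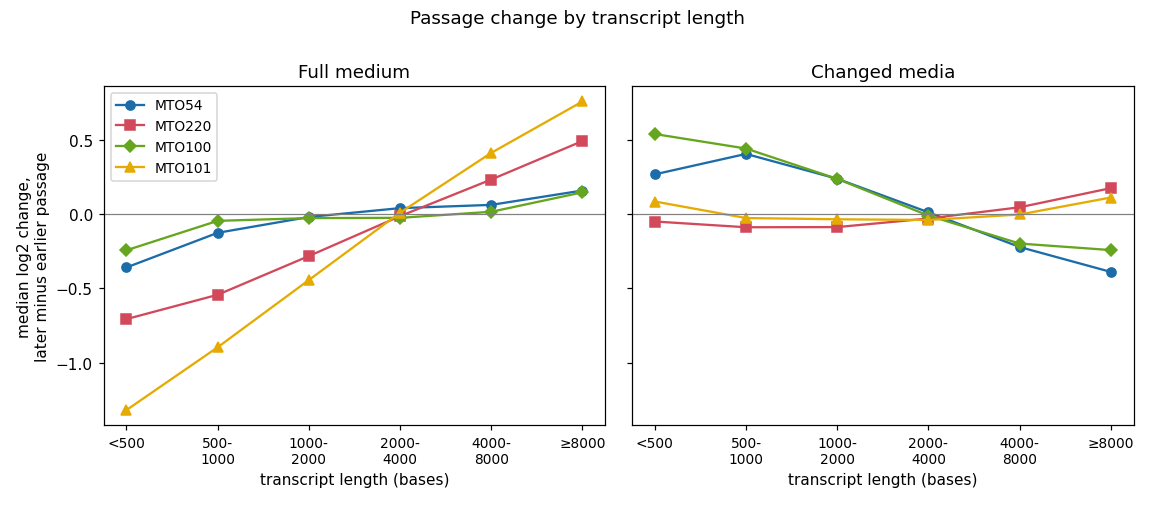
Median log2 change (later minus earlier passage) in 6 classes of transcript length in each line, in full medium (left) and changed media (right). In full medium the curves of MTO101 and MTO220 climb from short to long transcripts, reaching 0.76 and 0.49 at 8000 bases or more, and those of MTO54 and MTO100 climb less, to 0.16 and 0.15.

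With smooth trends on transcript length and GC content removed from each library, an alternative chosen after seeing these values, 345 genes rose (2.74% of 12593) and 409 fell (3.25%). Of the 1489 genes called before, 437 were among them (235 higher, 202 lower). Genes without a length were not tested in this fit. It thus tested 683 of the 728 genes called higher before and 586 of the 761 called lower. The groups above fared differently in that fit. Counts were as large or nearly so for ribosome biogenesis (9 fell, median -0.44), S phase (6 fell, median -0.24), EGFR/ERK feedback (8 rose, 0.40), WNT targets (6 rose, 0.32) and immediate early genes (6 rose, 0.45). TGF-beta/SMAD genes went to 5 risen (0.45) and stem cell genes to 4. Glycolysis and hypoxia kept a median of 0.70 with 2 called. By contrast ribosomal proteins went to 3 fallen (median -0.29), nuclear respiratory chain genes to 2, NRF2 and glutathione genes to 1 and Notch genes to 1 risen, and none of the 17 histone genes of the list was called, although the histone gene H2ac15, which is not in it, was. Mitochondrially encoded genes, with a median length of 784 bases, turned round to 7 risen and none fallen (median 0.70), so their direction depends on this treatment. Of single genes, Firre (1.22, adjusted p = 0.00769), Ddit4 (1.36, 0.00769), Nop58 (-0.94, 0.00769), Smad7 (1.04, 0.0169), Spry4 (0.94, 0.018), Abca1 (1.39, 0.0202) and Neat1 (1.26, 0.0342) stayed called, the values being log2 changes with adjusted p. Ppp1r3b, Plod2, Npas2, ND3, Gsta2, Hk2 and Pfkfb3 lost their calls. Of 100 called genes named here, 52 were called in this fit, in which Bc1 and D13Ertd608e were not tested for lack of a length.

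In changed media the later and earlier passages of the same lines differed in other ways. There the RNA yield was lower at the later passage in every line, 850 against 1536 ng/µl in MTO54, 87.8 against 280 in MTO220, 14.6 against 48.2 in MTO100 and 13.2 against 354 in MTO101. Of 14498 genes tested none was called by limma-trend (0%; lowest adjusted p 0.0795; 2376 at an unadjusted p under 0.05), 28 were called by edgeR and 82 by DESeq2, and without MTO220 793 were called. Of the 1489 genes called in full medium, 1472 were tested in changed media and 639 had the same sign there (43.4%, against 48.3% of all genes tested in both). The mean changes in the 2 kinds of medium correlated across 13454 genes with a Pearson r of 0.03. With length, too, the mean change in changed media went the other way (Spearman -0.35). The hypoxia list had a median of -0.08, ribosomal proteins 0.13 and WNT targets 0.04 in changed media.

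Full and changed media also differ in day of collection. The difference itself, the passage change in full medium minus that in changed media, was called for 360 of 15087 genes in the positive direction (2.39%) and 342 in the negative (2.27%). Among the highest of the named kind were Slc41a2 (1.93 ± 0.51, adjusted p = 0.0498), Abca1 (1.89 ± 0.27, 0.0197), Vegfa (1.88 ± 0.50, 0.0499) and P4ha1 (1.61 ± 0.43, 0.0499). The 5 lowest were Nrp (-1.90 ± 0.47, 0.0426), Cops9 (-1.78 ± 0.37, 0.0329), the histone gene H2ac15 (-1.63 ± 0.26, 0.0197), Rpl41 (-1.57 ± 0.35, 0.0346) and ND3 (-1.45 ± 0.19, 0.018). In full medium itself Nrp was not called (-0.43 ± 0.29, adjusted p = 0.336), and in changed media it changed by 1.47. Smad7 (difference 1.19 ± 0.15, adjusted p = 0.018), Spry4 (1.31 ± 0.19, 0.0197) and Kdm3a (0.99 ± 0.17, 0.0218) were also called, with changes of 0.05, -0.18 and -0.17 in changed media. By list, 8 glycolysis and hypoxia genes, 6 EGFR/ERK, 6 TGF-beta/SMAD and 4 WNT target genes had a called positive difference, and 4 ribosome biogenesis and 4 nuclear respiratory chain genes a called negative one. These calls needed all 4 lines: 29 genes were called without MTO220, and none without MTO54, MTO100 or MTO101.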

How the data were processed

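RNA was extracted from organoids with Trizol and a column kit, selected for poly(A), turned into libraries without strand information and amplified for 9 to 10 cycles, per the labels' protocols. The authors deposited 1 table of normalised reads per gene (a signal per library, reads divided by a size factor); per the submitters' processing notes the build was mm10 and the tools included DESeq2 1.22.1 and STAR 2.3.0e, and the annotation and the counting settings are not given in the sources used here. In the deposited signal, values were whole multiples of a library's step within 0.001, which gave back reads and library totals. Reads of overlapping and antisense genes cannot be told apart, and near-identical copies may share reads. The table held 27179 gene IDs, of which 25275 were paired with a symbol by the reference tables.

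Genes at 10 or more in at least 4 of the 8 libraries were tested with limma-trend (limma 3.58.1, robust) on log2(value + 1), with line as a term, two-sided, with Benjamini-Hochberg adjustment over all genes tested and a threshold of 0.05; this is the adjusted p wherever one is given, and ± is its standard error. A fold change on this scale understates the change of low genes. The difference between media was fitted over all 16 libraries. The libraries are paired because each pair comes from the same organoid line. The scripts were tested on simulated data. Genes named are, among those with a mean of at least 5 on the log2 scale, an established symbol and the same direction in all 4 lines, the 12 highest and 12 lowest called, the 5 per direction with the largest smallest change over the lines, and, without the condition on direction, up to 4 members of each list with the smallest p and the 5 highest and lowest called for the difference between media. Further genes named after their values were seen are Slc16a3, Adm, Bnip3, Egln3, Ankrd37, Ndrg1, Hif3a, Mxi1, Egln1, P4ha2, Ero1a, Ldha, Pgk1, Nqo1, Ncl, Axin2, Myc, COX1 and Bad. The comparison, the gene lists and the tests were chosen with earlier results of these data known. A few genes that these rules name are not reported here. Alternatives used edgeR 4.0.16 (quasi-likelihood) and DESeq2 1.42.0 on the recovered reads, other scalings, pseudocounts and filters, and the fit without each line. Transcript lengths and GC content came from GENCODE M21 and promoters from RefSeq (GRCm38.p6).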

Additional observations from a re-analysis of the deposited data

Results flagged for a closer look

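In 4 of 118 groups of 4 lines examined, 1 line lay far from the other 3, by Dixon's criterion. Chance gives about 1 in 20 such groups, which is more than were found. The log2 change of Lrp1 in MTO220 was 0.92, below the other lines. D13Ertd608e changed by -1.90 and H2ac15 by -1.56 in MTO101, each further below 0 than in the other lines, and Tyms changed by -0.37 in MTO220, nearer to 0 than in the others.

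The passage change differed between full and changed media for 702 genes, by the interaction of passage and medium. The differences of the named genes (full minus changed, log2 scale) were 1.93 for Slc41a2, 1.89 for Abca1, 1.88 for Vegfa and 1.61 for P4ha1, and -1.90 for Nrp, -1.78 for Cops9, -1.63 for H2ac15, -1.57 for Rpl41 and -1.45 for ND3.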

How the results depend on the processing

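In full medium 1489 genes were called. Without the replicate block, that is with the lines unpaired, 0 were called (1694 at an unadjusted p under 0.05), and all 100 named genes with a call lost it in that fit. Leaving out each line gave 337 to 1111 calls, all 16 libraries in 1 fit gave 3150 and removing length and GC trends, a setting chosen after seeing the data, gave 754. DESeq2 called 2105, edgeR 1497 or 1549, and TMM scaling gave 812 higher and 646 lower. The difference between media (702 calls) had 0 calls without the replicate block, 0 to 29 with a line left out, 316 with no filter on low values and 2001 with DESeq2. Scaled to library totals it split into 539 positive and 203 negative calls. In changed media the 0 calls became 1 with no filter, 1 with TMM, 28 with edgeR under either scaling, 82 with DESeq2, 3 with trends removed and 0 to 793 with a line left out, the highest without MTO220. The same-direction genes, at least 1.5-fold in every line, numbered 248, against 162 with a filter of 50, 86 with trends removed, 297 to 488 with a line left out, 32 at 2-fold and 5101 at any size.

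Among named genes, Ldha had mean changes of -0.068 to 0.525 with a line left out, the lowest without MTO100, and ATP8 and COX3 changed sign to 0.23 and 0.0698 with trends removed; the cause was not tested. With 3 residual degrees of freedom in full medium, small changes were not detectable, and passage, pool and RNA yield moved together in every line.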

Other observations

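Of 19 fatty acid genes 2 rose (5.3% of all genes tested did), the desaturases Scd1 (0.60 ± 0.14, adjusted p = 0.0279) and Scd2 (0.68 ± 0.16, adjusted p = 0.0312). Both calls were lost without MTO220, MTO100 or MTO101.

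Some differentiated cell markers were called. Over all genes tested 5.3% rose and 5.54% fell, and the marker lists are too short to be told apart from these shares. Of 15 goblet genes 2 rose and 1 fell, with medians of 0.25, -0.16, -0.46 and 0.15 by line. The membrane mucin Muc4 had a change of 1.90 ± 0.33, adjusted p = 0.0145, the mucus protein Fcgbp one of 0.65 ± 0.16, adjusted p = 0.0317 and the lectin Zg16 one of -1.12 ± 0.31, adjusted p = 0.0435. With a line left out in turn, Muc4 was called in all 4 fits, and Fcgbp and Zg16 in 1 each. The 10 Paneth genes had a median of -0.30, with 0.23, -0.22, 0.17 and -0.69 by line. Of 21 absorptive genes 1 rose, the sodium-proton exchanger Slc9a3 (mean 1.07 ± 0.24, adjusted p = 0.026). Slc9a3 changed by 0.43, 1.14, 0.67 and 2.03 by line, and its call was lost without MTO220 or MTO101. No Paneth, enteroendocrine, tuft, antigen presentation, unfolded protein response, autophagy or junction gene was called, in lists of 6 to 21 tested genes. The interferon signalling factor Stat2 rose by 0.67 ± 0.16, adjusted p = 0.0318, the laminin chain Lama3 by 1.15 ± 0.27, adjusted p = 0.0281, the YAP partner Tead1 by 0.48 ± 0.13, adjusted p = 0.042 and the NF-kB inhibitor Tnfaip3 by 0.88 ± 0.20, adjusted p = 0.026, whereas the retinaldehyde dehydrogenase Aldh1a1 had a change of -0.60 ± 0.15, adjusted p = 0.0319. With a line left out in turn, Stat2 and Tead1 were called in 0 of the 4 fits, Lama3 and Aldh1a1 in 1 and Tnfaip3 in 2.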
